A study of Homo sapiens with 12 samples.

Results

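The genes that license replication origins, build the replicative helicase and copy DNA in S phase were followed in PC-3 cells, an androgen-independent human prostate cancer cell line, with and without stable expression of the PIM1 kinase and with transient expression of the transcription factor NFATC1. The set holds 49 genes named by function (origin licensing, helicase, polymerases, clamp and clamp loader, nucleotide synthesis and E2F targets), and a probe belonged to it when its RefSeq transcript maps to one of them. The set was selected on function with the genes' log2 values in all 6 groups, with and without stable PIM1, known. Of these, 48 had a probe on the array (59 probes) and were tested among 25471 genes in all; POLA2 was not matched to a probe and was not analysed here.

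The 12 samples were 6 groups of 2. Control cells carried an empty vector, PIM1 cells stably expressed human PIM1, and both lines were pools selected with G418. WT and MM cells were the control line transiently transfected with wild-type NFATC1 or with the multi mutant, in which serines and threonines targeted by PIM1 are replaced with alanine, and the PIM1 + WT and PIM1 + MM groups were the PIM1 line transfected in the same way. A plasmid for the red fluorescent protein Td-Tomato was shared by all groups, and RNA was taken on the day after transfection according to the study's methods, although its text elsewhere gives a later time for the array samples. Replicate 1 of every group lay on one slide and replicate 2 on the other, and each array held the same-numbered samples of control and PIM1, of WT and MM, or of PIM1 + WT and PIM1 + MM. Cy3 was the dye of control, WT and PIM1 + WT RNA and Cy5 that of the remaining groups, with no dye swap, so that PIM1 minus control, WT minus MM and PIM1 + WT minus PIM1 + MM also compare the dyes, while PIM1 + WT minus WT lay within Cy3 and PIM1 + MM minus MM within Cy5. Nothing in the sources states that the 2 samples of a group were separate cultures, so the errors and p-values measure only the spread between these samples, which may be technical.

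Before S phase, the origin recognition complex, CDC6 and CDT1 load the MCM2-7 ring on DNA. The ring becomes an active helicase when CDC45 and the GINS complex join it, with help from MCM10. Polymerase alpha and primase then lay down primers, RFC loads the PCNA clamp, polymerases epsilon and delta extend the strands, RPA covers single-stranded DNA, and FEN1 and LIG1 finish the lagging strand. Many of these genes are transcribed as cells pass from G1 into S phase, through E2F factors that the retinoblastoma family holds back in resting cells. In bulk RNA, fewer cells in S phase and less RNA per cell cannot be told apart.

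Intensities are given on a log2 scale after quantile normalization of the 12 channels, with the median over a gene's probes, and levels of different genes are not compared with each other. Of the 48 genes, 47 had a probe above background in all 12 channels, SLBP being the exception. The paper reports that qPCR of the array samples showed overexpression of PIM1 and/or NFATC1, and those data were not examined here. On the arrays, the targeted genes checked the labels only in part. The single PIM1 probe, whose position relative to the vector insert is not given in the sources used here, differed by 0.25 ± 0.10 (SE) in PIM1 minus control, by -0.23 ± 0.10 in PIM1 + WT minus WT and by 0.15 ± 0.10 in PIM1 + MM minus MM, and passed the test in none of them (limma, adjusted p = 0.107, 0.136 and 0.338), so the arrays do not check the stable PIM1 label and it is used below as a label. NFATC1 averaged 7.58 in control, 8.02 in WT and 9.84 in MM samples, and WT was 1.82 ± 0.07 below MM (limma, adjusted p = 3.63e-05), but its 2 probes disagreed, at -0.12 and -3.52. With stable PIM1 they gave -0.15 and -3.98 for PIM1 + WT minus PIM1 + MM. The first probe did not rise with transfection, at -0.01 in WT minus control and -0.10 in PIM1 + MM minus PIM1. The second rose by 0.90 and 5.57 there. The probe that responded to transfection thus read WT below MM in both lines. Form and amount of NFATC1 RNA therefore cannot be told apart where the forms are compared.

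The epithelial markers KRT8, KRT18, KRT19 and EPCAM were well above background in every sample, with KRT18 between 13.91 and 14.23. EPCAM lay lower in the PIM1 line, at 8.47 to 8.93 against 9.17 to 9.42 without it, with no overlap, while the 3 keratins overlapped. The T cell marker CD3E was near the background at 6.34 to 6.72. Of the markers of other lineages, the endothelial receptor KDR lay at 7.78 to 8.27 in the PIM1 line and at 6.79 to 7.07 without it, PECAM1 at 7.75 to 7.92 and 6.86 to 6.97, and the leukocyte marker PTPRC at 6.43 to 6.77 in all samples. The part of these markers in the differences below was not tested. On the array that carried control replicate 1 and PIM1 replicate 1, SLBP read 5.94 and 6.19 in both channels against 11.63 to 12.23 in the other 10 samples, and MCM4 read 10.28 and 9.45 there against 11.09 and 10.32 in the second replicates of the same groups. Values for these 2 genes are therefore also given without that array, which leaves 1 control and 1 PIM1 sample. Some genes of the further lists also read lower there than in the second replicates, such as ORC3 (7.31 and 7.25 against 10.79 and 10.75), CCND1 (9.55 and 9.54 against 10.64 and 10.39) and DONSON (8.73 and 8.46 against 9.42 and 9.25). The lists are given with that array.

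**Figure D1:**
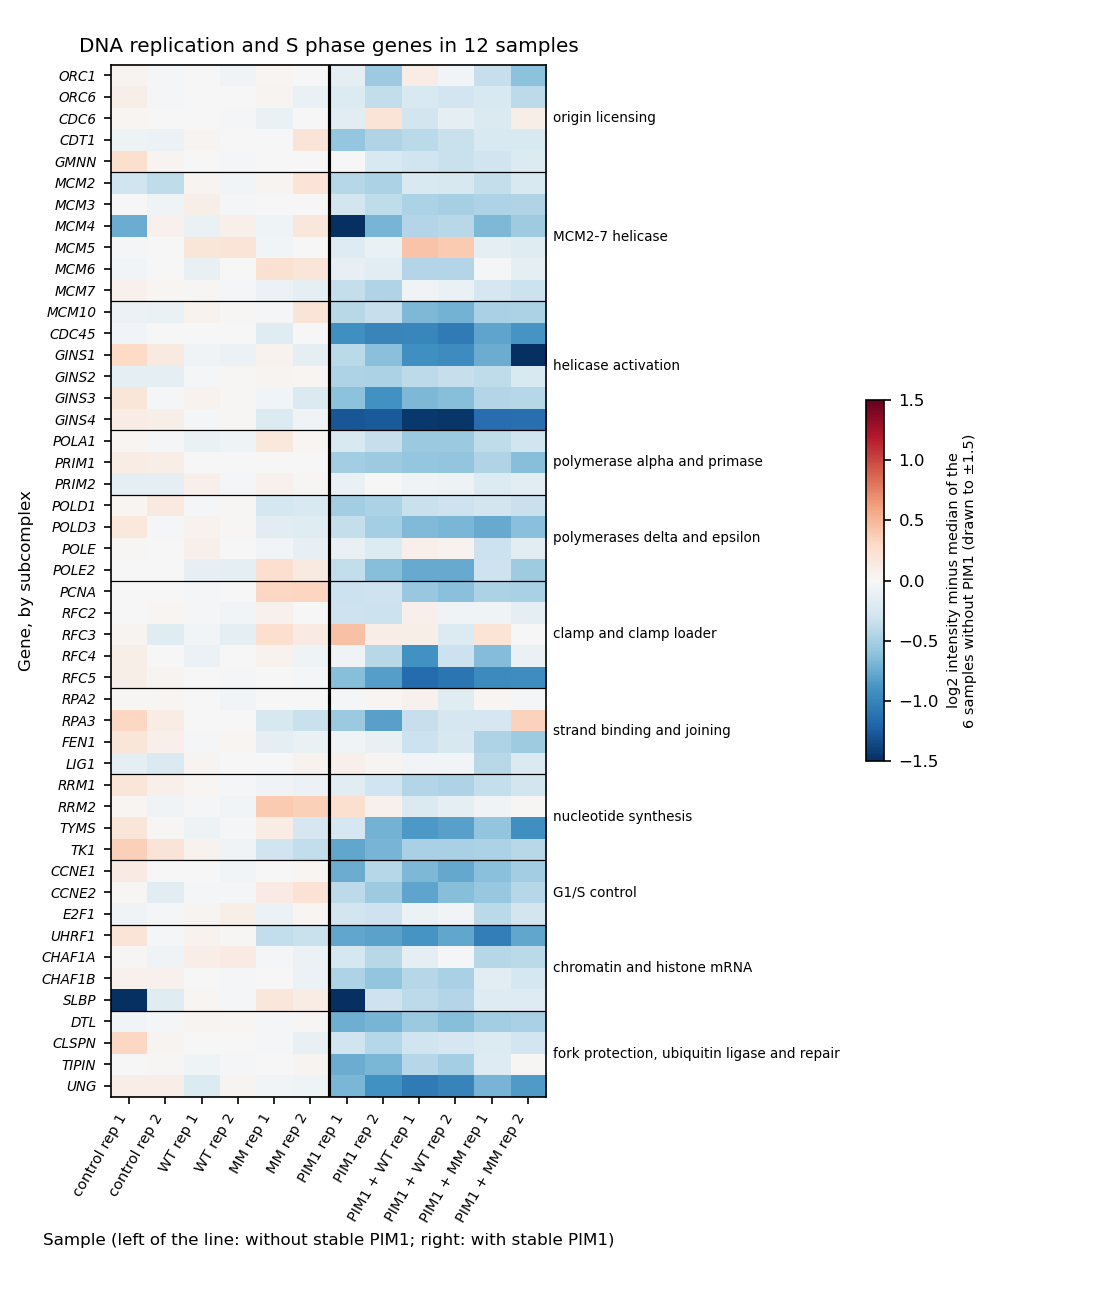
Each cell is a gene's log2 intensity in 1 sample minus its median over the 6 samples without stable PIM1, for 48 genes ordered by subcomplex and 12 samples (colour drawn to ±1.5). Most cells of the right block are blue, and 26 genes have all 6 samples of the PIM1 line below all 6 without it. Others hold cells above the median there, such as MCM5 in PIM1 + WT. The dark cells of SLBP and MCM4 lie in the first replicates of control and PIM1, which shared an array.

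The stable PIM1 comparisons were part of how this set of genes was chosen, so they are given as a description with no test of the set. In PIM1 minus control 33 genes were called lower and 1 higher at an adjusted p below 0.05, where 12.5% of all genes tested were called lower and 12.7% higher. In PIM1 + WT minus WT 30 were called lower and 1 higher (14.1% and 13.4% of all genes), and in PIM1 + MM minus MM 30 were called lower and none higher (9.4% and 10% of all genes). Most of these genes were bright, and among all genes above background in every channel the shares called lower were 16.9%, 19.3% and 12.7%. The median log2 difference over the 48 genes was -0.35, -0.41 and -0.35 in the 3 comparisons, against 0.01, -0.00 and 0.00 over all genes tested. Altogether 36 genes were lower in all 3 comparisons (24.2% of all genes were) and none was higher in all 3 (25.3%), and 21 were called lower in all 3 (4.39%). The 3 comparisons share no sample. Within the 2 slides the medians were -0.34 and -0.39, -0.40 and -0.42, and -0.40 and -0.32. In 26 genes all 6 samples of the PIM1 line lay below all 6 without it (8.35% of all genes), and in none did they lie above (6.89%).

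The size was mostly modest. A log2 difference of at least 1 together with a call was reached by 2 genes in PIM1 minus control (GINS4 and TK1; 1.17% of all genes), by 3 in PIM1 + WT minus WT (GINS4, RFC5 and CDC45; 1.27%) and by 2 in PIM1 + MM minus MM (GINS1 and GINS4; 0.872%). With each channel centred on its median in place of quantile normalization, the medians over the 48 genes stayed negative at -0.95, -0.68 and -0.48, while all genes then centred on 0.13, 0.14 and 0.05, and the numbers called became 38, 6 and 0. Fitted to the compared groups alone, 19 genes were called in PIM1 minus control.

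**Figure D2:**
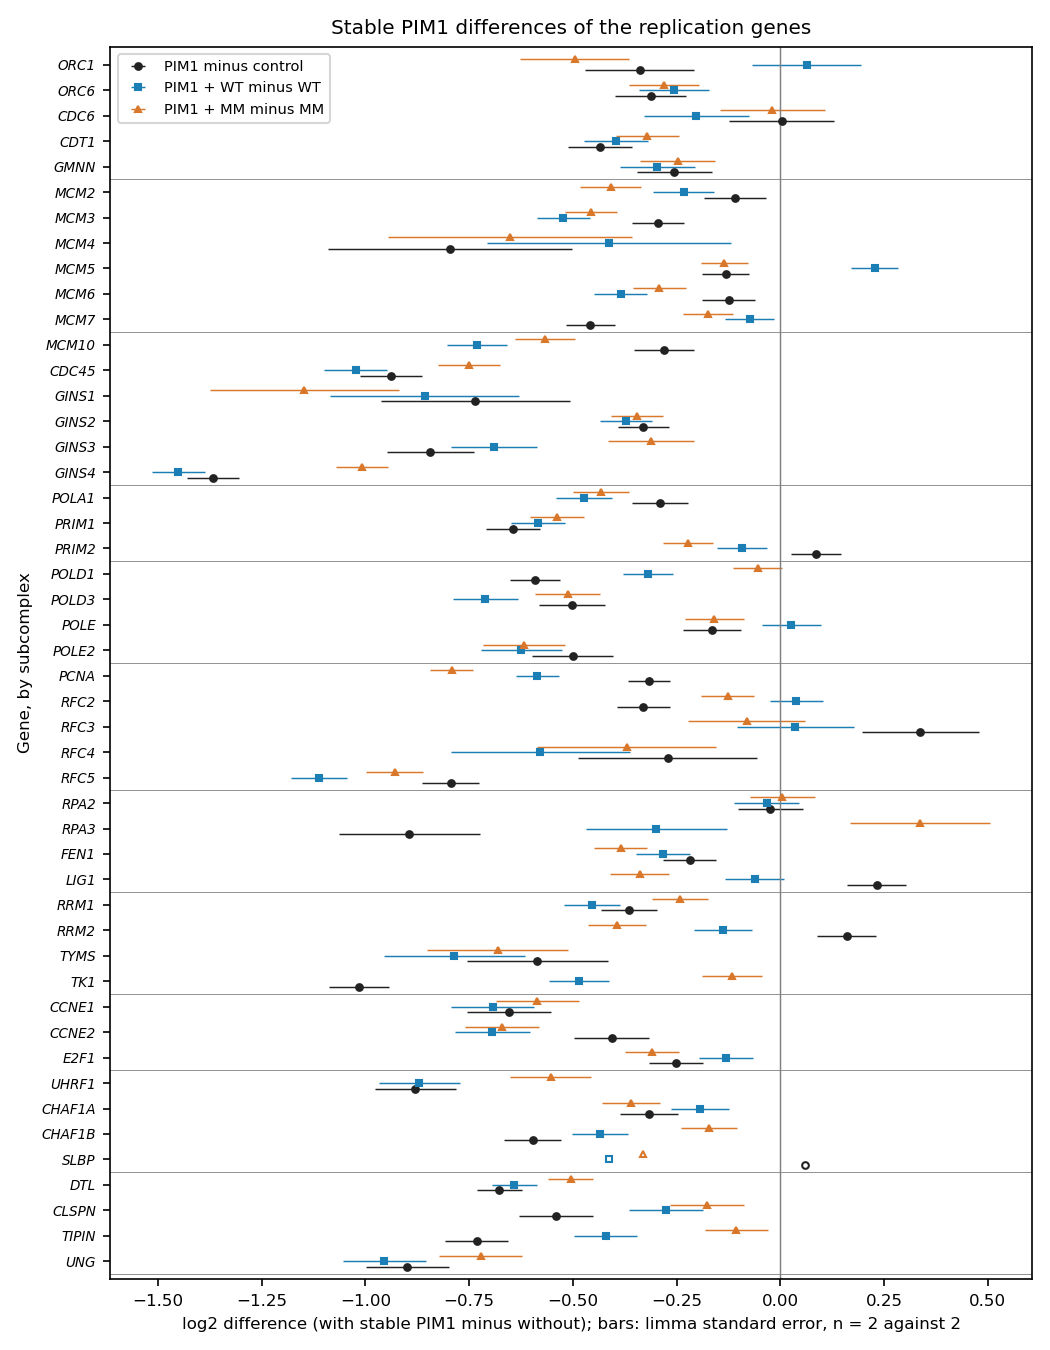
Log2 differences with stable PIM1 minus without it for each of 48 genes in the 3 comparisons, with limma standard errors (n = 2 against 2; SLBP, whose error of 1.91 comes from 1 array, has open symbols and no bar). Points lie left of 0 for 42, 43 and 46 genes, farthest for GINS4 in 2 of the 3 comparisons.

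The steps did not move alike, and the genes that turn the loaded ring into a moving helicase stood lowest. All 6 of them were called lower in PIM1 minus control and in PIM1 + WT minus WT, and 5 in PIM1 + MM minus MM, with median differences of -0.79, -0.79 and -0.66. GINS4, a subunit of the GINS complex, read 12.35 and 12.33 in control, 12.22 and 12.26 in WT and 12.03 and 12.19 in MM samples, against 10.96 and 10.99 in PIM1, 10.80 and 10.79 in PIM1 + WT and 11.09 and 11.11 in PIM1 + MM samples. Every sample of the PIM1 line was thus below every sample without it. The mean of the 2 differences within a dye was -1.23, or 2.34-fold lower, with a difference of -1.45 ± 0.06 (SE) in Cy3 and -1.01 ± 0.06 in Cy5.

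CDC45, which joins GINS on the MCM ring, ranged from 11.55 to 11.83 (median 11.67) in the 6 samples of the PIM1 line and from 12.44 to 12.62 (median 12.62) in the 6 others. The groups did not overlap, and the mean difference within a dye was -0.89, or 1.85-fold lower. GINS1, another GINS subunit, ranged from 9.76 to 10.99 with stable PIM1 and from 11.26 to 11.69 without it. Its lowest value, in PIM1 + MM replicate 2, came from the first 33 rows of that array, where the Cy5 signal was low (a median of 161.5 against 195 in the other rows). With those rows left out, which leaves 1 PIM1 + MM sample for this gene, PIM1 + MM minus MM was -0.70 in place of -1.15 ± 0.23. GINS2 and GINS3 also had no overlap between the lines, with mean differences within a dye of -0.36 and -0.50. MCM10, an assembly factor, averaged -0.65.

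The ring itself differed less. Of the MCM2-7 subunits 2, 3 and 3 of 6 were called lower in the 3 comparisons, with medians of -0.21, -0.31 and -0.35. MCM3 was the subunit whose samples did not overlap, at 13.05 to 13.27 in the PIM1 line and 13.47 to 13.63 without it. MCM5 was the highest of all 48 genes by its mean difference within a dye, 0.05, and its 2 differences within a dye had opposite signs: PIM1 + WT lay 0.23 ± 0.06 above WT, the 1 gene called higher there, and PIM1 + MM lay 0.14 ± 0.06 below MM. Median centring turned the first of these to -0.04. MCM4 without the array that stood apart was lower by 0.76, 0.41 and 0.65 on the log2 scale. These were close to its values with that array (0.80, 0.41 and 0.65, with standard errors of 0.29), where it was not called in all 3 comparisons. Without the array, PIM1 minus control compares 1 sample with 1 and has no spread of its own.

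Origin licensing genes were lower in smaller steps, with 2, 2 and 3 of 5 called and medians of -0.31, -0.26 and -0.28. CDT1, which brings the ring to origins, led them at 9.72 to 10.08 in the PIM1 line against 10.21 to 10.49, and ORC6 did not overlap either. CDC6, the other loader, overlapped between the lines (6.81 to 7.28 against 6.99 to 7.11). GMNN, whose product holds CDT1 back, was 0.26, 0.30 and 0.25 lower.

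Among the enzymes that make DNA, PRIM1, the catalytic primase subunit, read 9.41 to 9.59 with stable PIM1 and 10.04 to 10.16 without it, and POLA1, the polymerase alpha subunit, 10.16 to 10.48 against 10.61 to 10.87. PRIM2, the large primase subunit, overlapped between the lines and its 3 probes disagreed in direction in PIM1 minus control, from -0.42 to 0.09. Of the delta and epsilon polymerase genes 3, 3 and 2 of 4 were called lower. POLE2 averaged -0.62 and POLD3 -0.61 within a dye, and neither overlapped, whereas POLE, the catalytic subunit of epsilon, averaged -0.07. The POLE probes disagreed in PIM1 + WT minus WT, at -0.22 and 0.27, and gave -0.06 and -0.26 in PIM1 + MM minus MM. The first of these probes was well above background in 0 of 2 PIM1 and 0 of 2 PIM1 + MM samples. In MM and in PIM1 + WT it was so in 1 of 2 samples. The second probe lies in the rows of low Cy5 signal.

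The clamp and its loader differed widely among themselves. RFC5, a small loader subunit, had the second lowest mean within a dye, -1.02 or 2.03-fold lower: it read 12.87 and 12.83 in control, 12.79 and 12.77 in WT and 12.79 and 12.76 in MM samples, against 12.15 and 11.96 in PIM1, 11.64 and 11.69 in PIM1 + WT and 11.84 and 11.86 in PIM1 + MM samples. The samples without stable PIM1 lay close together and all of those with it were lower. RFC2 and RFC3 averaged -0.04 and -0.02 within a dye, although in PIM1 minus control RFC2 was called lower by 0.33 and RFC3 was 0.34 higher and not called, and RFC4 differed between its replicates in the PIM1 line (10.79 and 11.37 in PIM1 + WT). PCNA, the sliding clamp, read 11.60 to 11.92 in the PIM1 line and 12.20 to 12.55 without it, and its 2 probes were both lower in all 3 comparisons.

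The strand binding and joining genes moved least as a group, with medians of -0.12, -0.17 and -0.17. FEN1, the flap nuclease, was called lower in all 3 comparisons by 0.22, 0.28 and 0.39. LIG1, the ligase, was the 1 gene called higher in PIM1 minus control, by 0.23 ± 0.07, and was 0.34 ± 0.07 lower in PIM1 + MM minus MM. RPA2 averaged -0.01 within a dye. RPA3 was 0.89 ± 0.17 lower in PIM1 minus control and 0.34 ± 0.17 higher in PIM1 + MM minus MM. Its probe lies in the rows of low Cy5 signal, yet it read higher in PIM1 + MM replicate 2 than in replicate 1 (13.73 against 13.13). With those rows left out, which leaves 1 PIM1 + MM sample for this gene, PIM1 + MM minus MM was 0.04. The cause of the difference between the replicates was not tested.

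Nucleotide supply, the G1/S cyclins and the chromatin genes followed the polymerases. TYMS, thymidylate synthase, ranged from 13.41 to 14.08 in the PIM1 line and from 14.08 to 14.52 without it and averaged -0.73 within a dye. Its probe also lies in the low rows. Without them, with 1 PIM1 + MM sample left, PIM1 + MM minus MM was -0.51 in place of -0.68 ± 0.17. TK1, thymidine kinase, was 1.01 ± 0.07 lower in PIM1 minus control, 0.48 ± 0.07 in Cy3 and 0.12 ± 0.07 in Cy5. RRM1 was lower in all 3 comparisons without overlap, and RRM2, the other ribonucleotide reductase subunit, overlapped. CCNE1 and CCNE2, the E cyclins, averaged -0.64 and -0.68 within a dye, and E2F1, the factor itself, -0.22. UHRF1, which guides maintenance methylation, had a median of 9.24 in the PIM1 line and 10.04 without it, with no overlap. CHAF1B, a histone chaperone subunit, did not overlap, and CHAF1A did. SLBP, which binds histone mRNA, was -0.13, -0.41 ± 0.05 and -0.33 ± 0.05 in the 3 comparisons once the array that stood apart was left out. The first of these values compares 1 sample with 1.

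Of the fork and repair genes, all 4 were called lower in PIM1 minus control and in PIM1 + WT minus WT, and 2 in PIM1 + MM minus MM. UNG, the uracil glycosylase, led them at 12.63 to 13.01 (median 12.82) in the PIM1 line against 13.49 to 13.80 (median 13.70), a mean difference within a dye of -0.84 or 1.79-fold lower. DTL, the substrate receptor of the ligase that destroys CDT1, read 9.77 to 10.01 against 10.45 to 10.54. TIPIN, a fork protection factor, read 10.67 and 10.69 in control, 10.60 and 10.63 in WT and 10.65 and 10.71 in MM samples, but 9.92 and 9.97 in PIM1, 10.24 and 10.15 in PIM1 + WT and 10.47 and 10.68 in PIM1 + MM samples. The lines overlapped for this gene only through PIM1 + MM replicate 2.

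**Figure D3:**
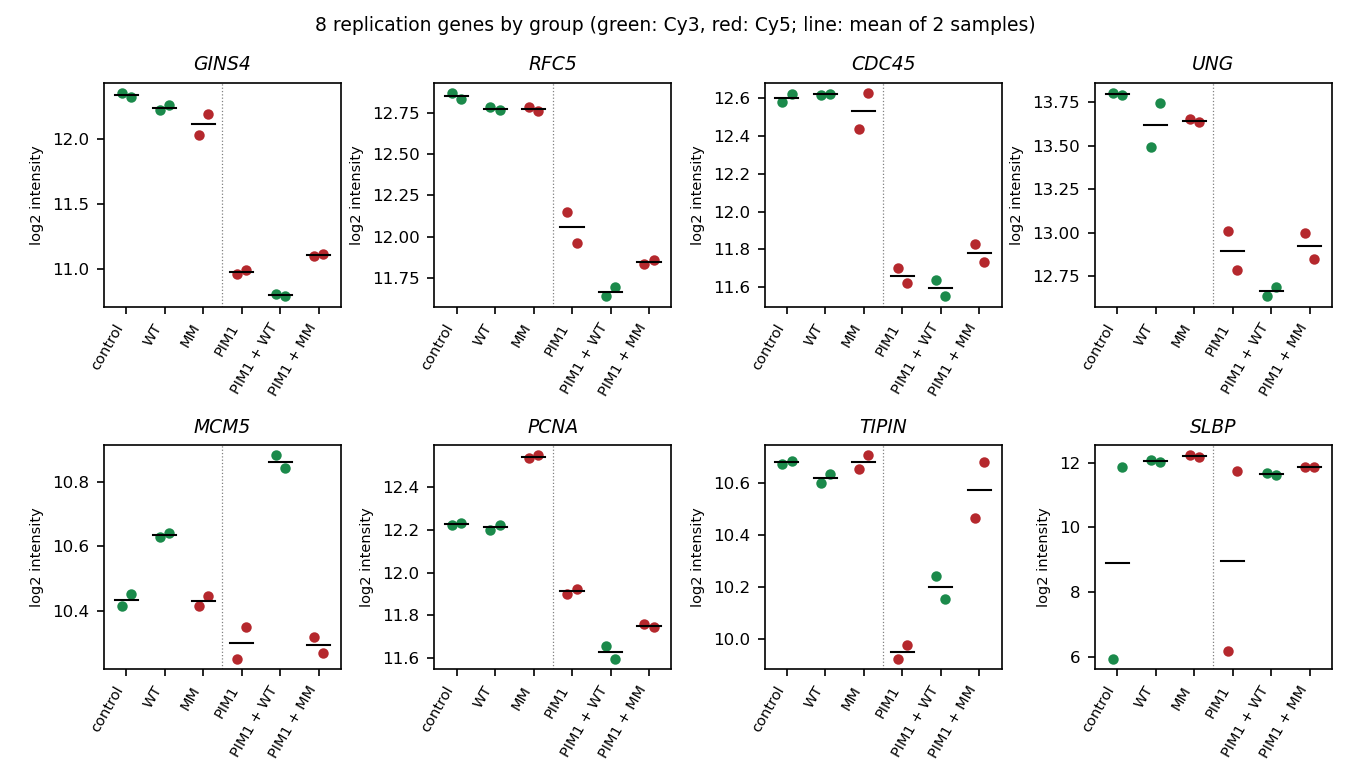
Log2 intensity of 8 genes in each of 12 samples, by group (points are samples, lines are means of 2, colours are dyes, and each panel has its own axis, which does not start at 0). GINS4, RFC5, CDC45 and UNG drop across the dotted line between groups without and with stable PIM1, MCM5 is highest in PIM1 + WT, PCNA is highest in MM, TIPIN differs within the PIM1 line, and SLBP is near 6 on 1 array.

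Further lists that hold none of the 48 genes were read in the same comparisons. Of 34 other replication genes 15, 18 and 17 were called lower and 3, 1 and 1 higher, with medians of -0.17, -0.30 and -0.28. TIMELESS, the partner of TIPIN, was 1.18, 0.90 and 0.57 lower, and MCMBP, which binds the MCM proteins, was 1.00 lower in PIM1 minus control. DNMT1, the maintenance methyltransferase, was lowest in PIM1 + WT minus WT at -0.95, and TOP2A, a topoisomerase, in PIM1 + MM minus MM at -0.64. At the upper end, ASF1B was 0.29 higher in PIM1 minus control, and POLD4, a small delta subunit, was 0.31 and 0.45 higher in the comparisons within a dye. Of 22 genes of G1 and of the Rb and E2F families 9, 7 and 4 were called lower and 5, 3 and 1 higher, with medians of -0.17, -0.17 and -0.08. E2F2 was 1.15, 0.80 and 0.40 lower, and CDKN1C, an inhibitor of cyclin kinases, 0.73, 1.02 and 0.75 lower, while CCND3, a D cyclin, was 0.48, 0.60 and 0.47 higher. The ends of this list were otherwise RBL2, a retinoblastoma relative, at 0.59 in PIM1 minus control, E2F4 at 0.60 in PIM1 + WT minus WT and CDK4 at -0.84 in PIM1 + MM minus MM. The CDK4 probe lies in the rows of low Cy5 signal, and its 2 replicates gave -0.31 and -1.36, the latter from the array with those rows. CCND2 stayed below the well-above-background limit in all 6 groups, and CDKN1A in the 3 Cy5 groups. Of 24 mitosis genes 14, 17 and 17 were called lower and 2, 1 and 0 higher, with medians of -0.24, -0.50 and -0.44; AURKA, a spindle kinase, was 0.23, 0.72 and 0.87 lower, BIRC5 was lowest in PIM1 minus control at -0.76, CDC20 was highest in the first 2 comparisons at 0.26 and 0.33, and PRC1 in the last at 0.18. The lists were read side by side and the difference between them was not tested.

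**Figure D4:**
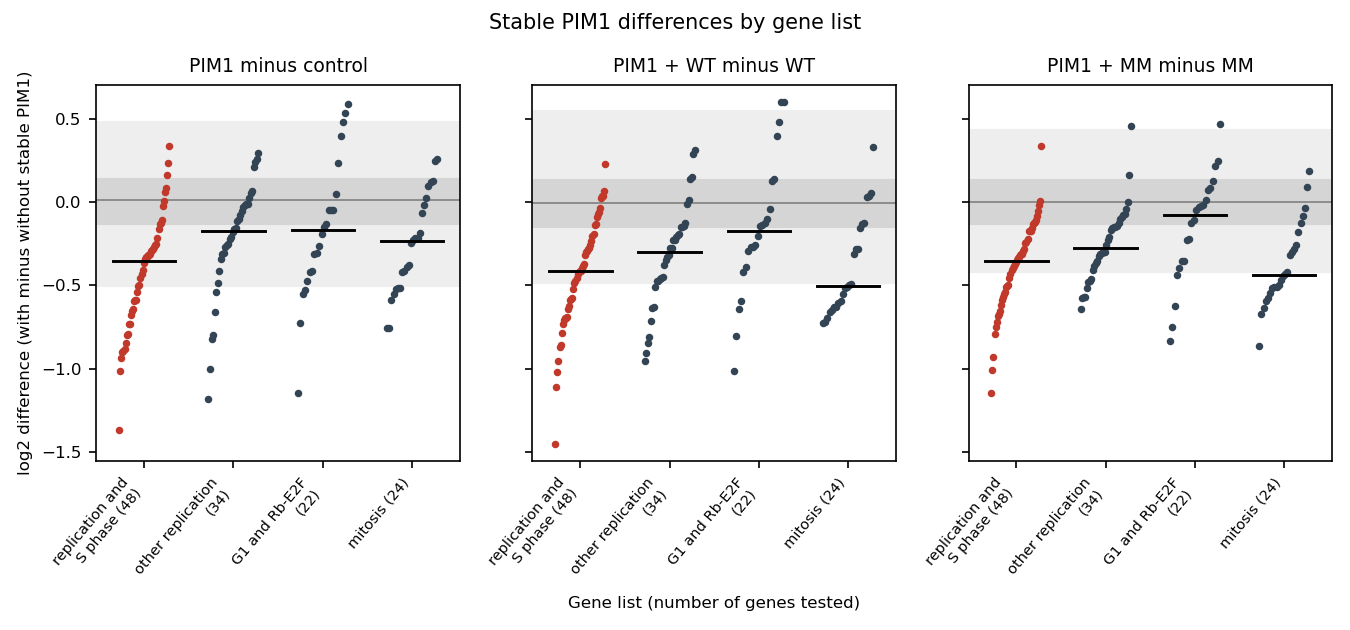
Log2 differences with minus without stable PIM1 in 3 comparisons for the 48 replication and S phase genes (red) and 3 lists of other genes (dark), sorted within each list, with the list median as a black line. Grey bands span the 5th to 95th and the 25th to 75th percentile of all 25471 genes; the 48 genes have medians of -0.35, -0.41 and -0.35, and mitosis genes -0.24, -0.50 and -0.44.

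Since many of these genes share a start at G1/S, their promoters were searched for the letters of an E2F site, TTTCCCGC, TTTCGCGC, TTTGCCGC or TTTGGCGC, on both strands. RefSeq windows of 300 bases (250 before to 50 after a start, GRCh38.p14) were given for 42 of the 49 genes, and none was given for MCM4, MCM5, GINS4, POLD3, RPA2, RPA3 and CCNE2. At least 1 match lay in 25 of their 56 windows (44.6%), against 1164 of 35116 windows in the whole table (3.31%). Counted by gene, 24 of 42 had one, against 1090 of 27305. E2F targets were among the functions that named the set, so a high share is in part built into the choice of genes. Of the 41 tested genes with a window, 12 of the 20 with the larger decrease within a dye had a match and 11 of the 21 with the smaller, so the letters were about as frequent in both. By gene, 9 of 27 other replication genes, 4 of 17 G1 and Rb-E2F genes and 1 of 19 mitosis genes had a match. The letters CCAAT lay in 58.9% of the 56 windows against 34.6% of all, and by gene in 26 of 42. Of the lists, 15 of 27 other replication, 7 of 17 G1 and Rb-E2F and 14 of 19 mitosis genes held CCAAT. It was thus more frequent among the mitosis genes than in the set. GGAAAA, the core that NFAT proteins bind, lay in 33.9% of the windows, and by gene in 17 of 42 against 7635 of 27305. In the same lists 10 of 27, 5 of 17 and 4 of 19 genes held GGAAAA, so the other replication genes were close to the set. Matches of one search that overlap those of another count in both.

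The 150 bases before the start are shown for 3 genes that were lower in the PIM1 line or between NFATC1 forms and hold a match (TYMS, PCNA, MCM6), for RFC5, which was among the lowest and has none in its window, and for RFC3 and POLE, whose mean difference within a dye was near 0 (for POLE over probes that disagreed) and which have one. They run 5′ to 3′ on the gene's strand, with matches to the E2F letters on either strand in capitals; the 3 matches of MCM6 include a pair that overlaps. A match is a description of the letters and not a bound site.
TYMS, chr18:657503-657652, plus strand: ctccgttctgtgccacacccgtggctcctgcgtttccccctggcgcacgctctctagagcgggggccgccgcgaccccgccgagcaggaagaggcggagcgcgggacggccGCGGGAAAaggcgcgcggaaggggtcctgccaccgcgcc
PCNA, chr20:5126623-5126772, minus strand: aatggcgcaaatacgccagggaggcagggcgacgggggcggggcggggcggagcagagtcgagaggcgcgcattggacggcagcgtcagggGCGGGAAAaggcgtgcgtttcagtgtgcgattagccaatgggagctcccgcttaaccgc
MCM6, chr2:135876444-135876593, minus strand: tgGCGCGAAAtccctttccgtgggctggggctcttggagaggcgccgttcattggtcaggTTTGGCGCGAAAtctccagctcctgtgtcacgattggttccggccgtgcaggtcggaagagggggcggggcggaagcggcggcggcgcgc
RFC5, chr12:118016553-118016702, plus strand: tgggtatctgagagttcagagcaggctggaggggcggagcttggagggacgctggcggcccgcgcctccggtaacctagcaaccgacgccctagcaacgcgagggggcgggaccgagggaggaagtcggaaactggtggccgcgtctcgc
RFC3, chr13:33817999-33818148, plus strand: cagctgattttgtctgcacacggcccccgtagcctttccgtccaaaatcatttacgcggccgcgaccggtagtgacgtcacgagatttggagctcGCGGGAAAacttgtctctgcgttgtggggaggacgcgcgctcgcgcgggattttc
POLE, chr12:132687343-132687492, minus strand: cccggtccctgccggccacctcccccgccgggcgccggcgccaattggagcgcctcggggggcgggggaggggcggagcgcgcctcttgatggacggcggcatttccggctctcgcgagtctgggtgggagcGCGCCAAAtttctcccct

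The choice of genes did not name the NFATC1 comparisons, but the values in all 6 groups were known when it was made. The p-values below are therefore not independent of that choice. These comparisons were fitted with limma, with p-values adjusted over all 25471 genes. They ask whether the form or amount, or the presence, of NFATC1 goes with a difference in the replication genes. Without stable PIM1, WT and MM cells differed at 2 of the 48 genes, both lower in WT, where 0.247% of all genes were called lower and 0.546% higher. PCNA read 12.20 and 12.22 in WT and 12.54 and 12.55 in MM samples, a difference of -0.33 ± 0.05 (SE; adjusted p = 0.0283), and RRM2 read 10.78 and 10.76 against 11.20 and 11.16, a difference of -0.41 ± 0.07 (adjusted p = 0.0397). Control samples lay with WT for both genes (12.22 and 12.23 for PCNA, 10.83 and 10.76 for RRM2). The other large values did not pass: UHRF1 0.39 ± 0.10 (adjusted p = 0.122), TK1 0.33 ± 0.07 (0.0844), RPA3 0.28 ± 0.17 (0.611) and POLE2 -0.33 ± 0.10 (0.2). Both calls compare Cy3 with Cy5, both ended when any 1 sample of either group was left out, and under median centring the 2 differences turned to 0.16 and 0.05 while the median of the 48 genes moved from 0.00 to 0.43.

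With stable PIM1, more genes differed between the forms of NFATC1. In PIM1 + WT minus PIM1 + MM 8 genes rose and 4 fell, where 8.55% of all genes were called higher and 7.57% lower, and 12% and 10.4% of those above background in all 12 channels, so the 12 calls were not far from the background. MCM5 rose the most: it read 10.88 and 10.84 in PIM1 + WT and 10.32 and 10.27 in PIM1 + MM samples, a difference of 0.57 ± 0.06 (adjusted p = 0.000296), and its 2 probes gave 0.47 and 0.67. ORC1, a subunit of the origin recognition complex, read 7.52 and 7.36 against 7.06 and 6.79, a difference of 0.51 ± 0.13 (adjusted p = 0.0286). CHAF1A rose by 0.33 ± 0.07 (adjusted p = 0.0128), but its probes disagreed (-0.03 and 0.69), as did those of POLE (-0.04 and 0.65, called at 0.30) and MCM7 (-0.02 and 0.44, called at 0.21). LIG1, E2F1 and FEN1 rose by 0.28, 0.27 and 0.22.

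Of the 4 that fell, TIPIN (values above) was -0.38 ± 0.08 (adjusted p = 0.0102) and MCM6 read 10.80 and 10.80 against 11.22 and 11.11, a difference of -0.36 ± 0.06 (adjusted p = 0.00552). GINS4 fell by 0.31 ± 0.06 (adjusted p = 0.0102) and CHAF1B by 0.25 ± 0.07 (adjusted p = 0.0378). RPA3, at -0.35 ± 0.17, did not pass (limma, adjusted p = 0.216). Without the low rows, with 1 PIM1 + MM sample left, it was -0.05. This comparison too is between dyes: with median centring no gene was called and the median over the 48 genes turned from -0.08 to 0.18 (0.01 with loess and Aquantile normalization), and between 2 and 8 genes were called when 1 sample was left out.

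**Figure D5:**
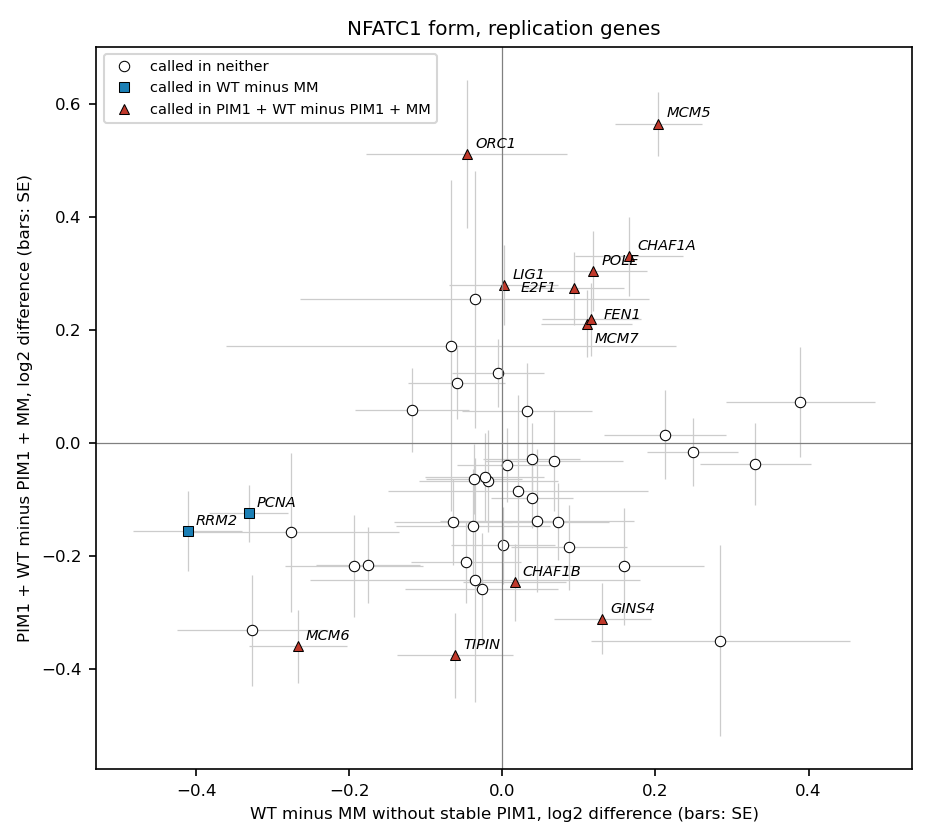
Log2 difference between wild-type and multi mutant NFATC1 without stable PIM1 (horizontal) and with it (vertical) for 47 genes (SLBP left out for its error), with limma standard errors, n = 2 against 2. PCNA and RRM2 are called in the former, 12 genes such as MCM5, ORC1, TIPIN and MCM6 in the latter, and GINS4 lies right of 0 and below it.

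The difference of these differences was tested as an interaction, in which a dye effect that is constant for a gene cancels. Of the 48 genes 1 passed, with a negative value, where 0.503% of all genes were called negative and 1.71% positive. For GINS4, WT minus MM was 0.13 ± 0.06 and PIM1 + WT minus PIM1 + MM was -0.31 ± 0.06, an interaction of -0.44 ± 0.09 (limma, adjusted p = 0.042), with -0.49 and -0.40 in the 2 replicates. The call ended in every fit that left out 1 of its 8 samples, at values from -0.52 to -0.36. MCM5 (0.36 ± 0.08, adjusted p = 0.0565), ORC1 (0.56 ± 0.19, adjusted p = 0.168), LIG1 (0.28 ± 0.10, adjusted p = 0.207), GINS3 (-0.38 ± 0.15, adjusted p = 0.242) and RPA3 (-0.64 ± 0.24, adjusted p = 0.225) did not pass.

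Among the genes outside the set, WT minus MM gave 0 calls by limma in the lists of other replication, of G1 and Rb-E2F and of mitosis genes, with 5, 4 and 5 at an unadjusted p below 0.05. In PIM1 + WT minus PIM1 + MM 3, 2 and 4 of them rose and 4, 5 and 3 fell. CDK4, a G1 kinase, had the highest difference there, 1.03 ± 0.33, and did not pass (adjusted p = 0.0663). Its probe lies in the low rows of PIM1 + MM replicate 2, and the replicates gave 0.35 and 1.71. POLD2, a delta subunit, rose by 0.65 ± 0.11 (adjusted p = 0.0045).

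The remaining comparisons lay within a dye and shared samples with those above. Wild-type NFATC1 in control cells gave no called gene among the 48 by limma, with 5 at an unadjusted p below 0.05, where 0.0785% of all genes were called higher, 0.126% lower, and 10.7% had an unadjusted p below 0.05. Values were largest for MCM2 (0.34 ± 0.07, adjusted p = 0.138) and TK1 (-0.28 ± 0.07, adjusted p = 0.197); the 3.15 of SLBP and 0.32 of MCM4 came from 1 array and were 0.18 and -0.08 without it, and GINS1 (-0.29 ± 0.23) and RPA3 (-0.21 ± 0.17) were within their error. The multi mutant in the PIM1 line, PIM1 + MM minus PIM1, gave 6 genes called higher (5.2% of all genes) and 2 lower (7.17%). TIPIN rose by 0.63 ± 0.08 (adjusted p = 0.00219), and CHAF1B, TK1, CDT1 and DTL by 0.32, 0.29, 0.29 and 0.21. RPA3 was called at 0.74 ± 0.17 (limma, adjusted p = 0.0243). Without the low rows, with 1 PIM1 + MM sample left, it was 0.44. FEN1 fell by 0.41 ± 0.06 (limma, adjusted p = 0.00516) and LIG1 by 0.38 ± 0.07 (adjusted p = 0.0115). GINS1, at -0.67 ± 0.23, did not pass (adjusted p = 0.0906, or 0.0434 with the replicate number, which is the slide, as a block). Without the low rows, with 1 PIM1 + MM sample left, GINS1 was -0.23. SLBP, at 2.90 with the array that stood apart, was 0.12 without it. With the fit kept to the 2 groups compared, none of the 8 calls remained in this comparison.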

How the data were processed

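RNA from 12 samples was hybridized to 6 two-colour Agilent 4x44K whole-genome arrays on 2 slides, and the authors extracted spot intensities with Agilent Feature Extraction. Per the file headers each deposited scanner file holds median signal intensity per spot and dye; the deposited series table holds log2 values, which differed from the quantile-normalized log2 median signal by at most 0.0844 over 43118 non-control spots. The authors' methods name a filter at the 90th percentile of negative controls, quantile normalization of log2 values and the median per gene symbol. Here probes were kept when above that percentile of the 153 negative controls in at least 2 channels (31484 of 34127 probes), and probes without a symbol were reduced by transcript (25471 genes, 18857 with a symbol); the number of channels and the use of transcripts were choices made here. Median raw intensity was 86 to 139 in Cy3 and 176 to 318 in Cy5, 64.54 to 69.03% and 56.94 to 66.45% of spots were well above background, and no spot was saturated; 2 samples a group limit the precision.

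Differences were fitted with limma 3.58.1 in R 4.3.3, with 1 mean per group over all 12 samples and Benjamini-Hochberg adjustment over all genes. A gene was called at an adjusted p below 0.05. The code was tested on simulated data. The replicate number is also the slide, and same-numbered samples share an array in pairs of groups. Slide and array were left out of the reported fit and used as blocks in alternatives. Over 15 pairs of groups, the deviations of same-numbered samples correlated at 0.05 to 0.83, and 7 pairs exceeded 0.1. The genes and lists were chosen with earlier results of these data known. Genes were named by rule: for stable PIM1 the 6 highest and 6 lowest by the mean of the 2 differences within a dye, for each NFATC1 comparison the 3 largest increases and decreases with the same sign in both replicates, otherwise the ends of each subcomplex and list, any gene of the lists called with an absolute difference of at least 1, and, chosen after their values were seen, other called or non-overlapping genes. Alternatives changed the background correction, normalization, signal, probe filter, flags, probe summary, blocks and samples. Promoter windows came from RefSeq (GRCh38.p14); the array's coordinates were not used.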

Additional observations from a re-analysis of the deposited data

Results flagged for a closer look

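GINS4 differed between the lines in its difference between the forms of NFATC1. Wild-type minus multi mutant was 0.13 without stable PIM1 and -0.31 with it, and the test of the difference itself gave -0.44 ± 0.09 (limma, adjusted p = 0.042; the direction was the same in both replicates). Over its 22 alternatives the value ran from -0.59 to -0.34 and the adjusted p from 0.00656 to 1, and the call was lost in 12 of them. The NFATC1 probe that rose with transfection gave -3.52 in WT minus MM and -3.98 in PIM1 + WT minus PIM1 + MM. The other of the 2 probes, at -0.12 and -0.15, did not rise with transfection. The form and the amount of NFATC1 RNA cannot be told apart here, and the part of that amount was not tested. With 2 samples a group, no group was large enough for a search for single outlying samples.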

How the results depend on the processing

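Counts are of the 48 genes called, in the order of stable PIM1 alone, with WT and with MM, then WT against MM without and with stable PIM1, WT minus control, PIM1 + MM minus PIM1 and the interaction, and were 34, 31, 30, 2, 12, 0, 8 and 1 as reported. Median centring left 6 in PIM1 + WT minus WT and 0 in PIM1 + MM minus MM and in all NFATC1 comparisons and the interaction, and turned MCM5 to -0.0364 in PIM1 + WT minus WT and RRM2, PCNA and POLE2 to 0.0473, 0.155 and 0.0465 in WT minus MM. Fits to the compared groups alone called 19 in PIM1 minus control, 0 in WT minus MM, 4 in PIM1 + WT minus PIM1 + MM, 0 in PIM1 + MM minus PIM1 and 2 in the interaction. WT minus MM had 0 with normexp or the processed signal, 1 with the brightest probe and 7 with the array as a random block. The processed signal called 7 in PIM1 + WT minus PIM1 + MM and 5 in PIM1 + MM minus PIM1, and the random block 20 in the former. Genes above background in all channels gave 1 in WT minus control and 13 in PIM1 + MM minus PIM1. The interaction had 0 with normexp, 2 with the deposited log2 values, without the low rows or without the array that stood apart, 3 with the strict filter and 5 with the random block. Without that array the counts were 34 in PIM1 + WT minus WT, 34 in PIM1 + MM minus MM, 2 and 16 in WT against MM without and with stable PIM1, and 2 in the interaction. Comparisons that use control or PIM1 samples then rest on 1 sample of these groups and are not counted. CHAF1A turned to -0.026 in PIM1 + WT minus PIM1 + MM with the brightest probe, and MCM4 in WT minus control was -0.0808 without that array or without control replicate 1, and 0.7282 without control replicate 2. The cause of these changes was not tested.

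Leaving out 1 sample at a time gave 24 to 33, 25 to 27, 22 to 27, 0 to 0, 2 to 8, 0 to 0, 4 to 6 and 0 to 3 genes called. With the replicate number, which is also the slide, as a block the counts were 37, 32, 32, 2, 12, 0, 11 and 1; among the genes named by rule the block changed 1 call, that of GINS1 in PIM1 + MM minus PIM1. The medians of the 48 genes in the stable PIM1 comparisons were negative under every alternative run. With 2 samples a group, no dye swap and 1 pooled line per genotype, differences between dyes, between lines and with PIM1 cannot be told apart in PIM1 minus control, and line and PIM1 cannot in any stable PIM1 comparison.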
